A study of Mus musculus with 6 samples.

Results

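The lecticans are large chondroitin sulfate proteoglycans of the extracellular matrix, and 7 genes of their system were followed in the embryonic mouse midbrain. They are the lecticans Ncan (neurocan), Vcan (versican), Bcan (brevican) and Acan (aggrecan), the cross-linking glycoprotein Tnr (tenascin-R) and the link proteins Hapln1 and Hapln4. The 7 genes were chosen by name from the 26852 genes of the deposited table with their measured group means in view, so every difference between the genotypes given for them is a description and carries no test.

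RNA was sequenced from midbrains dissected at E14.5 of embryonic development, with 3 libraries for the Lmx1b cKO and 3 for the control. The cKO embryos were Lmx1b fl/fl;Pitx3-Cre, and their control littermates were Lmx1b wt/wt;Pitx3-Cre, both on a C57Bl/6 background. Both genotypes therefore carried a Cre gene placed in a Pitx3 allele, and the controls differ from wild type at Pitx3. Each library was made from the RNA of 2 pooled embryos, and the embryos came from 4 litters. Cre in this model acts in cells that express Pitx3, which are the meso-diencephalic dopaminergic (mdDA) neurons. All other midbrain cells in the dissected tissue keep their Lmx1b gene, which encodes a LIM homeodomain transcription factor. Th, the rate-limiting enzyme of dopamine synthesis, lay between 733 and 976 normalized counts in all 6 libraries, and Syt1, a synaptic vesicle protein of neurons, lay between 7940 and 8535.

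The authors deposited means per genotype of read counts divided by a size factor for each library (normalized counts). The whole-number read counts behind each mean were recovered here for 26356 genes (98.2%), among them all 7 genes of interest. For 6 of these the search was the same as for other genes, and Ncan was searched separately, as given beside its values. The recovered libraries have a genotype but no sample number, and are called a, b and c within each genotype in order of falling size factor. They held between 20651553 and 25076912 recovered reads. Library cKO c, and to a lesser degree cKO a, stood apart by transcripts of bone and mesenchyme. The summed level of 9 such genes was 1945, 540 and 13524 normalized counts in cKO a, b and c, and 570, 549 and 636 in control a, b and c.

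In brain matrix, a lectican binds the polysaccharide hyaluronan with its N-terminal domain and tenascins with its C-terminal lectin domain. Link proteins lock the lectican onto hyaluronan, and tenascin-R, a trimer, ties several lecticans together. In the adult brain these molecules build the perineuronal nets around some neurons, whereas in the embryo neurocan and versican are abundant in a loose matrix through which cells and axons move. Aggrecan and Hapln1 are also main components of cartilage.

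Each lectican gene lies beside a link protein gene in the mouse genome, and no protein-coding gene separates any of the 4 pairs in the annotation (GENCODE on GRCm38). Bcan (ENSMUSG00000004892, chr3:87987531-88000230, minus strand) lies 21.5 kb from Hapln2 on the same strand. Ncan (ENSMUSG00000002341, chr8:70093085-70120873, minus strand) lies 2222 bp from Hapln4 (ENSMUSG00000007594, chr8:70083457-70090862, plus strand). Vcan (ENSMUSG00000021614, chr13:89655312-89742509, minus strand) lies 43.7 kb from Hapln1 (ENSMUSG00000021613, chr13:89539796-89611652, plus strand). Acan (ENSMUSG00000030607, chr7:79053483-79115099, plus strand) and Hapln3 on the opposite strand end 2 bp apart. Tnr (ENSMUSG00000015829, chr1:159523769-159931729, plus strand) has no such neighbour among the link protein genes. Its exons overlap those of Gm38039 on the opposite strand over 443 bp, and reads from both genes cannot be told apart if the counting did not use strand, which is not given in the sources used here.

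The promoters of 3 of the genes are printed here, from 250 bases before to 50 bases after the RefSeq start on GRCm38.p6, because the libraries of Bcan were split by genotype and those of Acan and Hapln1 varied most. Each is written 5′ to 3′ on the strand of its gene, and capitals mark matches to either of the motifs searched on both strands, TAATTA (a core of homeodomain binding sites) and ACAAT (a core of SOX binding sites). The windows are chr3:88000307-88000606 (minus) for Bcan, chr7:79052976-79053275 (plus) for Acan and chr13:89540386-89540685 (plus) for Hapln1. The RefSeq starts differ from the GENCODE gene positions given above. The Bcan and Acan windows lie wholly upstream of the GENCODE gene, and the Hapln1 window lies inside it.
Bcan: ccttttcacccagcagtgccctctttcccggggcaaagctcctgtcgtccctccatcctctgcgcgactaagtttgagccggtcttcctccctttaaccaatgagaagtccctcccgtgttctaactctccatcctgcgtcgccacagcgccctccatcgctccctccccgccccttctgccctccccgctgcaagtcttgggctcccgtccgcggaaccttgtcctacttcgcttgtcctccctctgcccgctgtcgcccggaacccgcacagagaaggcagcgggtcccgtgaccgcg
Acan: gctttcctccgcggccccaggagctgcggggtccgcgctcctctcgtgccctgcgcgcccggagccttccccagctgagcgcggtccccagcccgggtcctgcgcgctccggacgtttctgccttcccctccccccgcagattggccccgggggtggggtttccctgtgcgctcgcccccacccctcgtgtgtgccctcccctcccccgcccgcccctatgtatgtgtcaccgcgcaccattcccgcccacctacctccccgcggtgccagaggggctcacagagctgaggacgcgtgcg
Hapln1: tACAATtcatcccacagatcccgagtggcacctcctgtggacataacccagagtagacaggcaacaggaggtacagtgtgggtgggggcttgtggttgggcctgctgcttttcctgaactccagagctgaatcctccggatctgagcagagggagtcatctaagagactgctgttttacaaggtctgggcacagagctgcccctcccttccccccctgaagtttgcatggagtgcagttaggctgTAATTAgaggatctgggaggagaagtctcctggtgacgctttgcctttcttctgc
TAATTA occurs in 5.29% and ACAAT in 31% of 32851 RefSeq promoters of this length. Of the 6 genes with a RefSeq promoter entry (all but Hapln4), only Hapln1 held a match, 1 to each motif, and the matches did not overlap. The windows of Bcan, Ncan, Vcan, Acan and Tnr held neither string of letters. The GC content was 64% for Bcan, 74% for Acan and 54.3% for Hapln1, against a median of 52.7% for all promoters.

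Levels of the 7 genes spanned a wide range in the E14.5 midbrain. The normalized count was divided by the merged exon length to compare genes, and the following levels are per kb of exon. Ncan led with means of 3241 in the cKO against 3273 in the control, which gave it rank 320 of 26693 genes by control level. Vcan followed with 455 and 438, Bcan with 370 and 446, and Tnr with 138 and 143. The link proteins and aggrecan were far lower, with 15.8 and 11 for Hapln4, 3.04 and 1.41 for Hapln1, and 2.69 and 1.43 for Acan.

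The libraries did not overlap at 4 of the 6 steps in this order. Every library of Ncan exceeded every library of Vcan, and over all libraries the mean of Ncan was 7.29 times that of Vcan. Vcan and Bcan overlapped, with Vcan the higher in 4 of 6 libraries and a ratio of 1.09. Their order depends on the length used, since division by the longest annotated transcript gave 520 for Vcan and 528 for Bcan over all libraries. Bcan lay above Tnr (2.9 times), Tnr above Hapln4 (10.5 times) and Hapln4 above Hapln1 (6.02 times) in all 6 libraries. Hapln1 and Acan overlapped. Neurocan transcripts thus made up most of the lectican sum per kb, 78.2% to 80.6% in the cKO libraries against 77.3% to 79.7% in the control libraries.

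**Figure D1:**
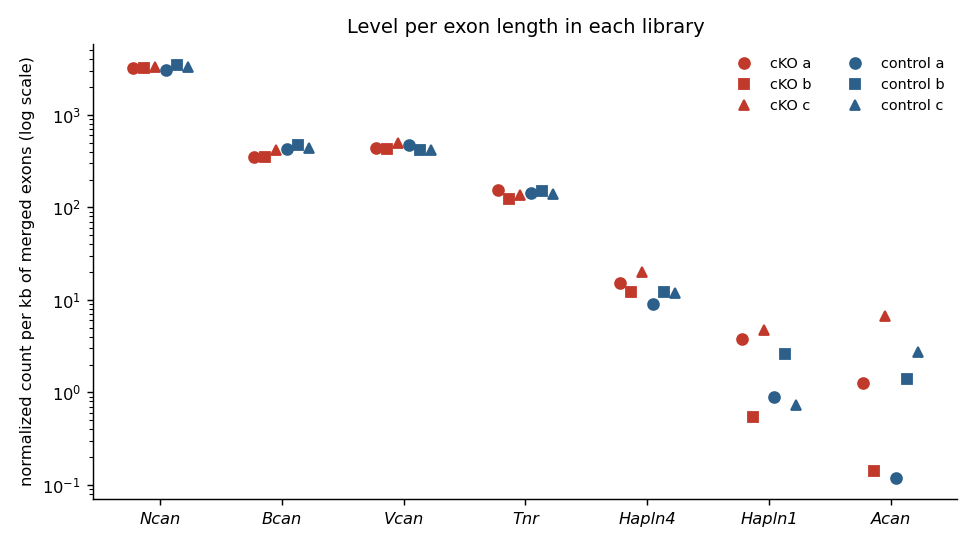
Normalized count per kb of merged exons (log scale) of the 7 genes in each of the 6 libraries, with cKO in red, control in blue and the library given by the marker shape. Ncan lies between 3081 and 3487 in all libraries, Hapln4 between 9.02 and 19.9, and the libraries of Hapln1 and Acan spread over more than a factor of 8.

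Ncan encodes neurocan, a lectican made largely by neurons. Its normalized counts were 23205, 23089 and 23671 in cKO a, b and c and 22165, 25092 and 23388 in control a, b and c. The groups overlapped, and the control libraries enclosed all cKO libraries. The means were 23322 ± 308 (SD, n = 3) in the cKO against 23548 ± 1470 in the control, a difference of -0.962%. Among all 7 genes Ncan varied least, with a coefficient of variation of 4.09% over the 6 libraries. The reads of Ncan exceed the sums searched for other genes, and its library values, with the proportions to neurocan that use them, rest on the assumption that no library differs by more than 1.5-fold from its group mean. A single set of whole numbers was found in each genotype, where accident alone gives 0.293 sets in the cKO and 0.371 in the control, so the library values of Ncan are less certain than those of the other genes.

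Vcan encodes versican, a lectican that surrounds migrating neural crest cells and growing axons. It had 6356, 6146 and 7230 normalized counts in the cKO libraries against 6900, 6054 and 6057 in the control libraries. The highest library of each genotype stood above the rest, and the groups overlapped. The means were 6577 ± 575 and 6337 ± 488 (SD, n = 3), with a log2 fold change of 0.05 (SE 0.069) in limma. Without cKO c it was -0.02, so the sign of this small difference rests on that library.

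Bcan encodes brevican, a lectican made mainly by glia. Its normalized counts were 1424, 1405 and 1678 in cKO a, b and c, and 1745, 1912 and 1783 in control a, b and c. All cKO libraries lay below all control libraries, and cKO c lay close to control a. Of the 7 genes Bcan was the only one whose groups did not overlap. Over the 16681 genes tested, 3.79% had all cKO libraries below all control libraries and 3.88% had them above. Because Bcan was selected on these same means, nothing is read from that count. The means were 1502 ± 152 in the cKO against 1813 ± 87.4 in the control (SD, n = 3), a difference of -17.1%. On the log2 scale of the limma fit the difference was -0.28 (SE 0.077), and it lay between -0.36 (without cKO c) and -0.23 (without cKO b) over the fits that left out 1 library. In whole tissue, fewer cells that express a gene and less RNA per cell cannot be told apart.

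Relative to neurocan, the brevican level per kb was 10.9%, 10.8% and 12.5% in cKO a, b and c and 13.9%, 13.5% and 13.5% in control a, b and c. Brevican made up 8.69% to 9.81% of the lectican sum per kb in the cKO against 10.7% to 10.8% in the control. The versican level was 1.21 to 1.25 times that of brevican in the cKO libraries and 0.89 to 1.11 times in the control libraries. These proportions are within libraries, so the size factors cancel, but they use the same values that chose the genes and were not tested.

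Acan encodes aggrecan, the lectican of cartilage and of adult perineuronal nets. It was near the limit of detection, with 10, 1 and 46 reads in the cKO libraries against 1, 11 and 19 reads in the control libraries. As normalized counts these are 9.37, 1.06 and 49.8 in cKO a, b and c, and 0.885, 10.6 and 20.5 in control a, b and c. The groups overlapped, and the highest library exceeded the lowest 56.3 times. The exact 95% Poisson interval, which covers counting error only, was 36.5 to 66.4 for cKO c and 12.4 to 32 for control c, so both stood above the 0.0224 to 4.93 of control a by more than counting error. The means were 20.1 ± 26.1 in the cKO against 10.7 ± 9.82 in the control (SD, n = 3), each with an SD near or above its mean. The log2 ratio of the means was 0.91 and turned to -1.03 without cKO c. It was 1.81 without control c, 0.37 without control a and -3.33 with both cKO a and cKO c left out. The limma log2 fold change was 0.52 (SE 1.2), and it was -0.65 without cKO c and -0.72 without control a. No direction can be given for Acan.

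Tnr encodes tenascin-R, which oligodendrocyte lineage cells and some neurons secrete. Its normalized counts were 1995, 1602 and 1742 in cKO a, b and c and 1834, 1925 and 1778 in control a, b and c. The cKO libraries held both the highest and the lowest value. The means of 1779 ± 199 and 1846 ± 74.3 (SD, n = 3) lay closer together than the SD of the cKO libraries, with a log2 fold change of -0.05 (SE 0.08) that was 0.02 without cKO b and -0.14 without cKO a.

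Hapln1 encodes the link protein of cartilage, which is also made in brain. It had 24, 3 and 26 reads in the cKO libraries against 6, 16 and 4 reads in the control libraries. The normalized counts were 22.5, 3.17 and 28.1 in cKO a, b and c, and 5.31, 15.4 and 4.32 in control a, b and c. Libraries cKO a and cKO c were the highest and cKO b was the lowest of all 6, so the groups overlapped. The means were 17.9 ± 13.1 and 8.33 ± 6.11 (SD, n = 3), and the mean of the control alone lay under the minimum of 10 normalized counts used for the fit. The log2 ratio of the means was 1.11, and 0.61 with a pseudocount of 10. It was 0.62 without cKO c and 1.90 without control b, and -1.39 with both cKO a and cKO c left out. The limma log2 fold change was 0.83 (SE 0.82), and it lay between 0.32 and 1.73 over the fits without 1 library.

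Hapln4 encodes the brain link protein that accompanies brevican in adult nets. Its normalized counts were 60, 47.5 and 77.9 in cKO a, b and c and 35.4, 48.0 and 46.4 in control a, b and c. Library cKO b lay below control b by less than counting error, and the other cKO libraries lay above all control libraries. The means were 61.8 ± 15.3 and 43.3 ± 6.89 (SD, n = 3), a difference of 42.8% and a limma log2 fold change of 0.50 (SE 0.29). The log2 ratio of the means, 0.51, was 0.31 without cKO c and 0.14 with cKO a and cKO c left out. Its neighbour Ncan held nearly the same mean in both genotypes.

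**Figure D2:**
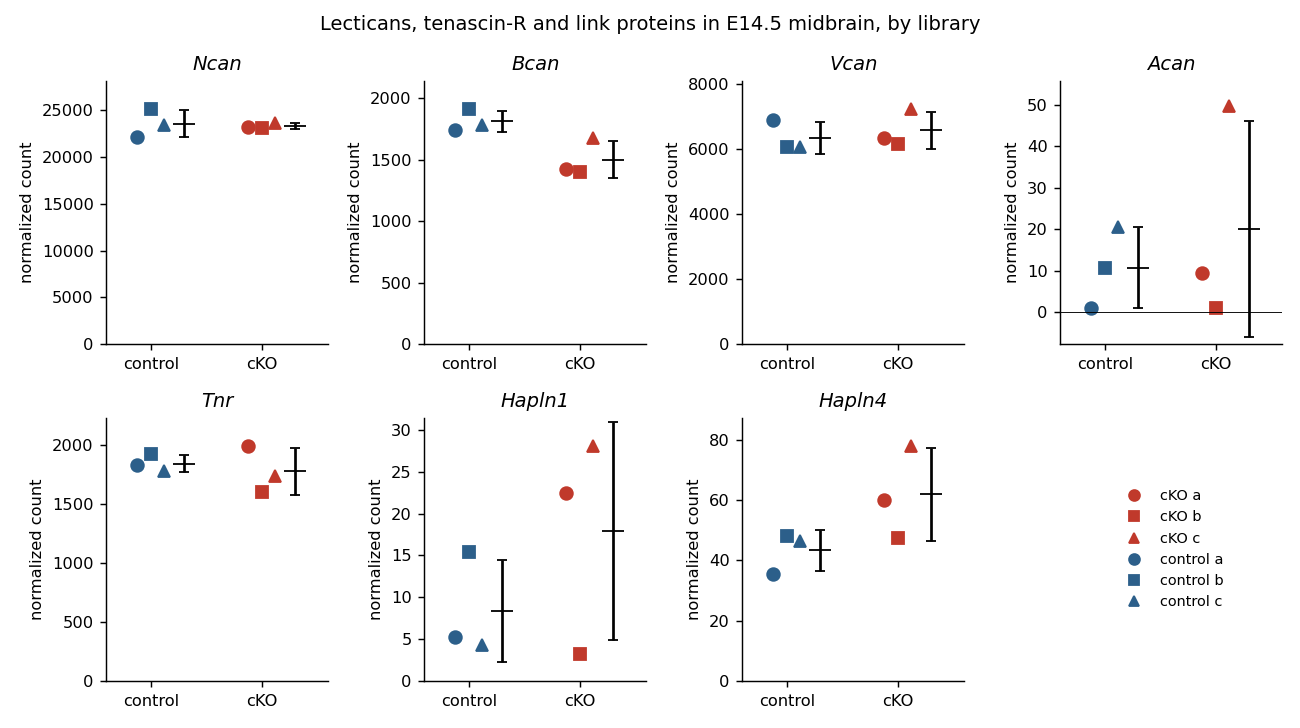
Normalized count of each of the 7 genes in each library (points), with the mean and SD of the 3 libraries of each genotype (black), on a linear axis that includes 0 for every gene. Bcan alone shows all cKO libraries (1405 to 1678) below all control libraries (1745 to 1912), and for Acan the SD of the cKO is larger than its mean, so the lower end of the bar lies below 0.

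Of the 7 genes, Acan, Hapln1, Hapln4 and Vcan were highest in cKO c, as were 16.4% of all genes tested and most markers of skeletal tissue. Of 10 cartilage genes recovered, 8 were highest in cKO c, and of 9 bone and mesenchyme genes, 8 were. Col1a1, the main collagen of bone, had 532, 14.8 and 6097 normalized counts in cKO a, b and c but 10.6, 11.5 and 10.8 in control a, b and c. Cnmd (chondromodulin), a cartilage glycoprotein, had 10.3, 6.34 and 84.4 in the cKO libraries against 19.5, 5.76 and 7.56 in the control libraries. Matn1, a cartilage matrix protein, was at 7.58 in cKO c, at 0.937 in cKO a and at 0 in the other libraries, and Comp was at 0 in cKO c. The summed level of the cartilage list ranged from 7090 to 9485 for cKO libraries and from 7928 to 8354 for control libraries. It is dominated by Col2a1, which had 2765 to 4452 normalized counts in all libraries and is also made in embryonic neural tissue. In control c, where Acan had 20.5 normalized counts, the bone and mesenchyme sum was 636 and Matn1 was at 0. The part of skeletal tissue in the values of Acan, Hapln1 and Hapln4 was not tested, and values without cKO a and cKO c are given beside each of them above.

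**Figure D3:**
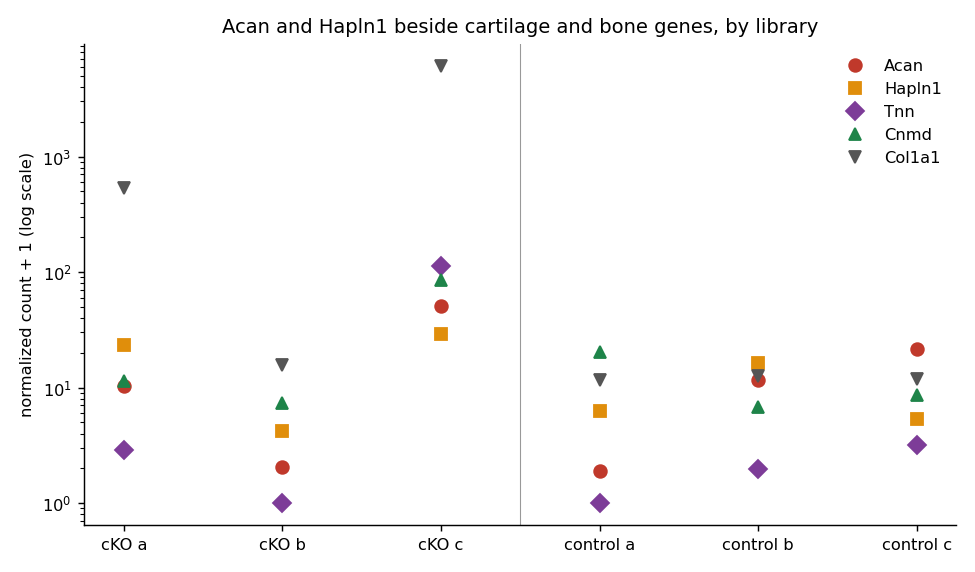
Normalized count plus 1 (log scale) of Acan, Hapln1, the bone tenascin Tnn, the cartilage gene Cnmd and the bone collagen gene Col1a1 in each library, with the genotypes separated by the grey line. All 5 genes are highest in cKO c, while the control libraries with the most Acan (control c) and the most Hapln1 (control b) have Col1a1 at 10.8 and 11.5.

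Genes of radial glia and astrocytes, cells that make Bcan, were read beside it. Of 9 such genes, 7 were recovered and 6 had a mean of at least 10, and all 6 had a negative log2 fold change, with a median of -0.22 against a median of -2.2e-05 for all genes tested. The limma fit across all genes put 3 of the 6 at an unadjusted p under 0.05, which holds for 1.61% of all genes tested in the lower direction and 1.18% in the higher direction. They were Slc1a3 (a glial glutamate transporter), Hes5 (a Notch target) and Aldh1l1 (a folate enzyme of astrocytes). Aldh1l1 had 2263, 2430 and 2651 normalized counts in the cKO libraries against 2822, 2836 and 2849 in the control libraries, with no overlap and a log2 fold change of -0.22 (SE 0.063, limma adjusted p = 1.00). Aqp4, a water channel of astrocytes, was also separated, with 73.1, 35.9 and 79 normalized counts in cKO a, b and c and 80.5, 80.7 and 120 in control a, b and c, but its log2 fold change of -0.60 (SE 0.31) did not pass the unadjusted threshold. The unadjusted call of Aldh1l1 held in 6 of 6 fits without 1 library. That of Slc1a3 was lost without cKO a, control a or control c, and that of Hes5 without cKO a, cKO c, control a or control c.

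The summed level of the 7 recovered glial genes was 14457, 16371 and 17236 in cKO a, b and c, and 18117, 16576 and 17883 in control a, b and c. The ranges overlapped, from 14457 to 17236 against 16576 to 18117. Nes (nestin) is the largest part of this sum, with 6428 to 7912 normalized counts over all libraries and a log2 fold change of -0.04 (SE 0.068). Among the cKO libraries, cKO c had the most Bcan and the highest glial sum, but cKO b had the least Bcan and cKO a the lowest sum. Among the controls the order was reversed, since control b had the most Bcan and the lowest glial sum, and control a had the least Bcan and the highest sum. Gfap, a defining marker of mature astrocytes, was at 0 in cKO a and cKO b, at 10.8 in cKO c and between 0.961 and 1.77 in the control libraries. Fabp7 and Vim, whose libraries were not recovered, had authors' means of 12594 and 10031 in the cKO against 13725 and 11056 in the control. The part of these cells in the level of Bcan was not tested.

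**Figure D4:**
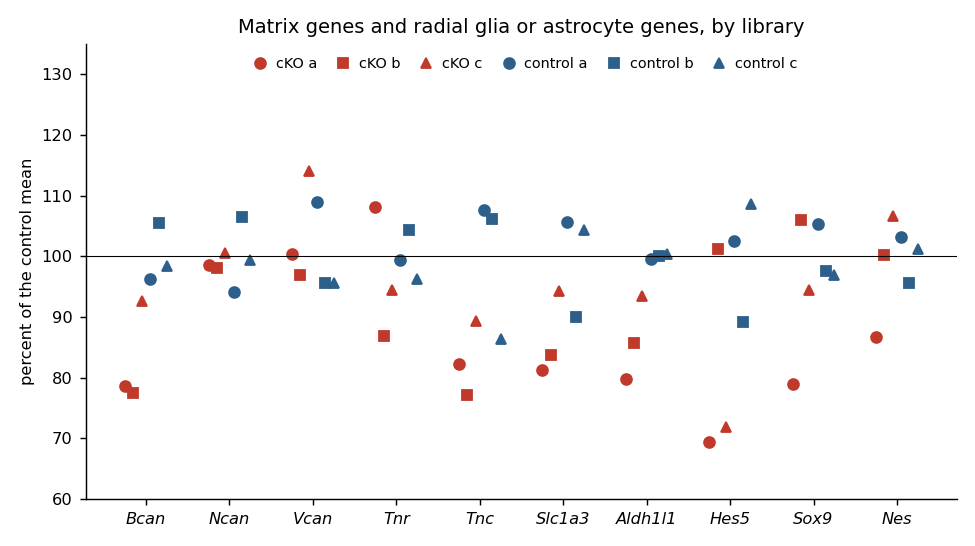
Level in each library as a percent of the control mean, for 4 lectican system genes, the tenascin gene Tnc and 5 genes of radial glia and astrocytes. The axis starts at 60%, red is cKO and blue is control, and the cKO libraries of Bcan and Aldh1l1 lie below all their control libraries, while those of the other 8 genes overlap with the control.

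The other genes of the lectican system were read from lists of 59 genes in 6 functional groups. Counts per library were recovered for 56 of them and 54 had a mean of at least 10. The limma log2 fold change was negative for 32 and positive for 22, with a median of -0.02. No gene of these lists had an adjusted p under 0.05, as for all genes tested (0 of 16681 genes, 0%). Of the 16681 genes, 466 had an unadjusted p under 0.05. By limma-trend 0 passed adjustment, and 276 were lower and 201 higher at that unadjusted threshold. Genes that were not recovered were not tested. At an unadjusted p under 0.05, 3 of the 54 were lower in the cKO (Tnc, Cd44 and Chst7) and 0 were higher. Over all genes tested 1.61% were lower and 1.18% higher at that threshold. The groups did not overlap for 1 of the 54 in each direction, Hapln2 (lower) and Adamts5 (higher), beside 3.79% lower and 3.88% higher over all genes tested.

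Tenascins and the other link proteins were the group nearest to the 7 genes, with 5 tested, 4 lower and 1 higher. The higher gene, Tnn, reached the minimum mean through cKO c alone, so its direction was set by that filter. Tnc, a tenascin of radial glia that also binds lecticans, was the most abundant of them. It had 6755, 6334 and 7332 normalized counts in cKO a, b and c and 8832, 8712 and 7094 in control a, b and c, so cKO c overlapped with control c. The means were 6807 ± 501 and 8212 ± 971 (SD, n = 3), a difference of -17.1% and a log2 fold change of -0.27 (SE 0.08, limma adjusted p = 1.00). Its unadjusted call held in 6 of 6 fits without 1 library, in which the log2 fold change lay between -0.37 and -0.22. Its exons overlap those of 8030451A03Rik on the opposite strand over 176 bp. The tenascin-C level per kb was 5.61 to 6.97 times that of Tnr in the cKO and 6.61 to 7.97 times in the control.

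Hapln2, the link protein gene beside Bcan, is known from nodes of Ranvier in myelinated fibres. It had 2.81, 13.7 and 15.2 normalized counts in cKO a, b and c and 15.9, 20.2 and 22.7 in control a, b and c. The means were 10.6 ± 6.75 and 19.6 ± 3.41 (SD, n = 3), with a log2 fold change of -1.17 (SE 0.59) that did not pass the unadjusted threshold. Hapln3, the neighbour of Acan, had means of 34.2 ± 16 and 36.2 ± 9.93. Tnn, a tenascin of bone, had 111 normalized counts in cKO c and at most 2.16 in every other library.

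Hyaluronan genes numbered 8 among those tested, 4 lower and 4 higher. Cd44, a hyaluronan receptor, had 61.6 ± 27.4 normalized counts in the cKO against 94.2 ± 20.8 in the control (SD, n = 3), with a log2 fold change of -0.70 (SE 0.31, limma adjusted p = 1.00). Over the fits without 1 library it lay between -1.02 and -0.47. The unadjusted call was lost without cKO a, cKO b, control a or control c, and in limma-trend, where Tnc and Chst7 were the 2 lower matrix genes. Tmem2, a hyaluronidase of the cell surface and the most abundant of this list, had means of 4474 ± 172 and 4352 ± 64.5. Of the synthases, Has2 had 445 ± 47.2 and 476 ± 76.2, and Has3 had 1165 ± 120 and 1035 ± 150, while Has1 stayed under the minimum mean.

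Enzymes that build and sulfate chondroitin chains, the side chains of the lecticans, were mostly near their control level. Of 20 tested, 13 were lower and 7 higher, and only Chst7, a 6-O-sulfotransferase, was at an unadjusted p under 0.05. Chst7 had 59.4 ± 22.6 normalized counts in the cKO against 96.3 ± 20.4 in the control (SD, n = 3), with a log2 fold change of -0.74 (SE 0.31, limma adjusted p = 1.00). Over the fits without 1 library it lay between -0.95 and -0.39, and the unadjusted call was lost without cKO b, control a or control c. B3gat3, which completes the linker between core protein and chain, was the most abundant, with 1856 ± 218 and 1927 ± 113.

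Other chondroitin sulfate proteoglycans, the ADAMTS proteases that cleave lecticans and the receptors or surface ligands held no gene at an unadjusted p under 0.05. Of the proteoglycans 6 were tested (2 lower, 4 higher). The most abundant, Spock2, had authors' means of 14267 in the cKO against 14698 in the control, and its libraries were not recovered. Of the 7 proteases (4 lower, 3 higher) Adamts15 had the highest normalized counts, with 435 ± 25.8 and 429 ± 78.4, while per kb of exon Adamts4 stood above it (49.4 and 44.5 against 42 and 41.4). Adamts5, an aggrecanase, had 190, 197 and 200 in the cKO libraries against 188, 173 and 176 in the control libraries, with a log2 fold change of 0.12 (SE 0.14). Of the 8 receptors and ligands (5 lower, 3 higher) the most abundant was Ptprs, a receptor for chondroitin sulfate chains, with authors' means of 28412 and 28686 and no recovered libraries.

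**Figure D5:**
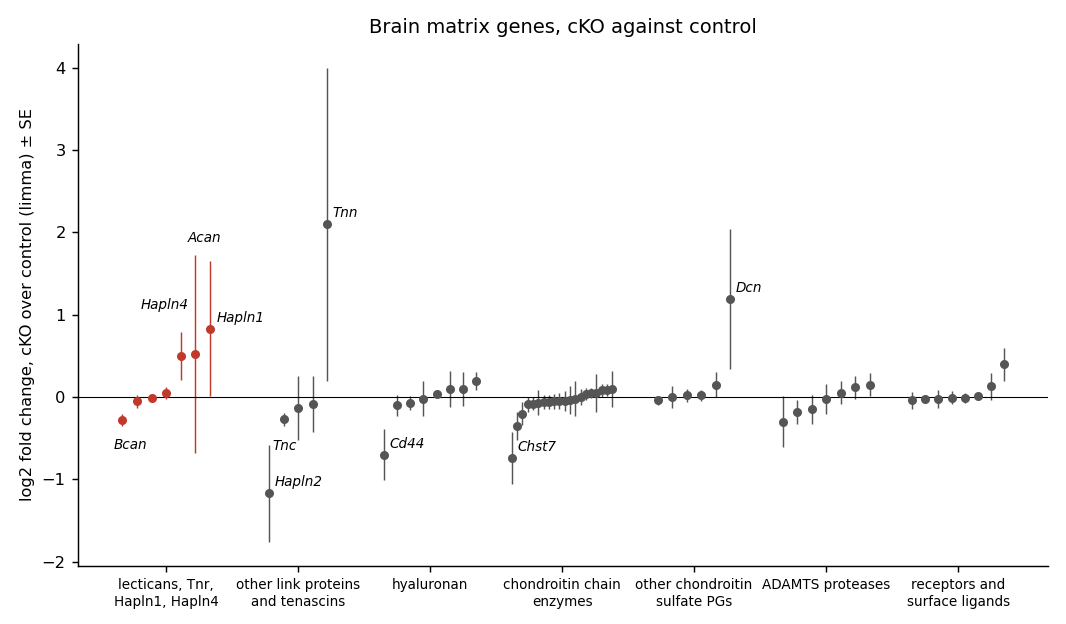
Log2 fold change of cKO over control in limma with its standard error, for the 7 genes (red, chosen on this comparison and not tested) and for the 54 other matrix genes tested (grey) in 6 groups. Most genes lie near 0 with short bars, and the genes far from 0, such as Hapln2 (-1.17) and Acan (0.52), have long bars and low counts.

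The genes whose pattern over the 6 libraries lay closest to each of the 7 genes were found among 12449 genes with a mean of at least 100 normalized counts (12448 where the gene itself was among them), as the Euclidean distance of centred log2(normalized count + 1). Bcan was closest to 2610037D02Rik and to Egfr, both at a distance of 0.084. Egfr, the EGF receptor, had 507, 503 and 596 normalized counts in cKO a, b and c and 635, 725 and 662 in control a, b and c. Tnr was closest to Bpnt1 (0.062) and Rbms3 (0.066), Vcan to Gm12418 (0.054) and Ppp2r3a (0.056), and Ncan to Gm5763 (0.031) and Zfp319 (0.041).

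Hapln4 was closest to Prx (0.35), a protein of myelinating Schwann cells, and to Alas2 (0.36), the haem synthesis enzyme of red blood cells. Hapln1 was closest to Col6a3 (1.6), a collagen of connective tissue, and to Wif1 (1.7), a secreted WNT inhibitor. Acan was closest to 9330104G04Rik (2.7) and Thbs2 (2.8). Thbs2, a thrombospondin of connective tissue, had 75.9, 29.6 and 408 normalized counts in cKO a, b and c and 39.8, 48.0 and 40.0 in control a, b and c. The smallest distances of Acan and Hapln1, at 2.7 and 1.6, were far larger than those of the abundant lecticans. All distances describe 6 libraries and carry no test.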

How the data were processed

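Midbrain RNA (E14.5) was sequenced paired-end and mapped on Ensembl GRCm38.p4. The submitters' processing notes name TopHat 1.0.14, Bowtie2 2.1.0, HTSeq 0.6.1p1 and DESeq 1.10.1. The deposited table holds a signal per gene and genotype, which the authors made as the mean of read counts over library size factors. Its 3 lines that name no gene, with 31.8% of the mean counts, were left out. Its ratios, log2 ratios, p-values, adjusted p-values and ranks from the authors' own comparison were not used.

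Whole-number counts per library were recovered by a search of sums of up to 30000 reads per gene and group, and 26356 genes had a single answer in both genotypes (69.5% of the gene signal). Of 500 decoy values per genotype 0 had an answer. The decoys had means below those of Vcan and Tnc, so they do not cover genes at such levels. Ncan was searched above that limit within 1.5-fold of its mean, where accidental answers are more likely. Recovered counts of 16681 genes with a mean of at least 10 were fitted with limma 3.58.1 in R 4.3.3 (voom weights, recovered size factors, genotype as the term, Benjamini-Hochberg adjustment over all genes), after tests on simulated data. The design named this fit for counts per library, deposited or recovered.

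The 7 genes and all lists were chosen with earlier results of these data known. Named genes were the 7 genes, listed matrix genes with an unadjusted p under 0.05, the most abundant gene of each matrix list and the closest genes by pattern. Neighbouring link proteins, listed genes whose groups did not overlap, synthases, Tnn and marker genes were named after their values were seen. Snorc, of the cartilage list, had no match. Libraries came from separate pools of embryos, so p-values measure the spread between pools. Promoters are from RefSeq, and gene positions are from GENCODE. Python 3.11.15, numpy 2.4.6, pandas 2.3.3, numba 0.67.0 and matplotlib 3.10.9 were used. Alternatives were other minimum means, limma-trend, recomputed size factors (differing by at most 0.126%), a pseudocount of 10, another exon length and each library left out.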

Additional observations from a re-analysis of the deposited data

How the results depend on the processing

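Of 181 alternative values, 168 were taken as unchanged. For counts of genes this meant a small ratio to the main count, such as 363 lower genes without control a against 269. Fold changes taken as unchanged include changes of sign, such as the log2 ratio of the means of Acan, 0.91 but -1.03 without cKO c. With a minimum mean of 1, 309 genes were higher at an unadjusted p under 0.05, against 197. The count of genes with an adjusted p under 0.05 ranged from 0 to 3 over the fits that left out 1 library, and the 3 were the Y-linked genes Kdm5d, Uty and Ddx3y, lower without control a. The count of higher genes at an unadjusted p under 0.05 ranged over the same fits from 127 (without control c) to 276. For the other matrix genes, the count of lower genes ranged from 1 (Tnc, without cKO b) to 4, and that of higher genes from 0 to 2 (Dcn and Bgn without cKO b, Has3 and Rtn4rl2 without cKO c, and Has3 alone without control b). The cause of these changes was not tested, beyond the fewer libraries of each such fit.

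The length of the longest transcript gave 528 per kb for Bcan, against 408 over all libraries, and 520 for Vcan, against 446. With cKO a and cKO c both left out, an alternative chosen after seeing the data, the log2 ratio of means was -3.33 for Acan, -0.20 for Tnr, -1.39 for Hapln1 and 0.14 for Hapln4. The lone cKO library is then assumed, in limma, to vary like the control libraries. No paired analysis was possible because the recovered libraries cannot be tied to the library numbers. The deposited column headers use the same numbers for both genotypes, so a pairing may exist, but it could not be fitted. The low reads of Acan and Hapln1 (at most 46 and 26 in a library) widen their counting intervals, but libraries of both genes also differed by more than counting error.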

Other observations

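The list of mdDA neurons covers the cells in which Lmx1b was deleted. Of its 7 genes tested, 6 had a negative and 1 a positive log2 fold change in limma, 2 were at an unadjusted p under 0.05 (Ddc and Pitx3) and 0 passed adjustment, where 1.61% of all genes tested were lower and 1.18% higher at that unadjusted threshold. The median log2 fold change was -0.24, and all cKO libraries lay below all control libraries for 3 of the 7 (Ddc, Pitx3 and Nr4a2), beside 3.79% of all genes tested. Pitx3, which carries the Cre gene on an allele in both genotypes, had 141 ± 26.3 normalized counts in the cKO against 185 ± 11.3 in the control (SD, n = 3), and its unadjusted call was lost without cKO a, control a, control b or control c. Ddc, which makes dopamine from L-DOPA, had 1580 ± 28.4 and 1893 ± 329, and its unadjusted call was lost when control c or any of the cKO libraries was left out. The summed level of the list was 8057 to 8208 in the cKO and 7929 to 9614 in the control.

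Lists of other cell types held no gene of the lectican system and, apart from bone and mesenchyme, few differences. Of 7 oligodendrocyte lineage genes tested 5 were lower and 2 higher, of 3 neuronal genes 1 was lower and 2 higher, of 6 vascular and meningeal genes 1 was lower and 5 higher, and all 4 microglial genes were lower, with 0 at an unadjusted p under 0.05 in any of these lists. Of 7 cartilage genes tested 1 was lower and 6 were higher, also with 0 at that threshold. Of 7 bone and mesenchyme genes tested 1 was lower and 6 were higher, of which Lum and Ibsp reached the minimum mean through the cKO libraries alone, so their direction was set by that filter. Col3a1, a fibrillar collagen, was at an unadjusted p under 0.05, with 626, 240 and 2319 normalized counts in cKO a, b and c and 200, 172 and 215 in control a, b and c. That call was lost when any of the control libraries was left out.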
